A study of Homo sapiens with 8 samples.

Results

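The 10 genes HSPA5, HSP90B1, CALR, CANX, PDIA4, PDIA6, XBP1, HERPUD1, SDF2L1 and DNAJB9 encode chaperones, folding enzymes and regulators of the endoplasmic reticulum (ER). They were chosen by name from 27408 genes of an all-read table and followed through a converted-read table of 6993 genes, in which 9 of them had a row. Each gene was represented by its transcript row with the highest mean. NALM6, an established human precursor B-cell acute lymphoblastic leukaemia line, carried an inducible HMGN1 gene, and HMGN1 is a small protein that binds nucleosomes. The libraries formed 3 groups. The vehicle group (3 libraries, A to C) was the line with wild-type HMGN1 given vehicle for 6 h. The induced wild type group (3 libraries, A to C) was the same line given doxycycline at 100 ng/ml for 6 h. The induced mutant group (2 libraries, A and B) was a line with HMGN1 S20,24E, a form deficient in nucleosome binding, given the same doxycycline. All 8 cultures received 100 µM 4-thiouridine for the last 5 h, so RNA made in that window carried the label, which SLAM-seq reads as T-to-C conversions after chemical modification of the thiol. Libraries of a group were described as biological replicates. No vehicle culture of the mutant line was analysed here, so the line and doxycycline cannot be told apart where the mutant is compared with vehicle. In the induced wild type, doxycycline and HMGN1 cannot be told apart. The labels name neither the promoter that drives HMGN1 nor the clonal origin of each line.

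Secretory and membrane proteins fold inside the ER with the help of these genes' products. When unfolded proteins accumulate, the membrane sensors IRE1, PERK and ATF6 start the unfolded protein response. IRE1 cuts a short intron out of XBP1 mRNA, and the spliced XBP1 protein and cleaved ATF6 then bind promoters of chaperone genes, while PERK favours translation of ATF4. B-lineage cells depend on the XBP1 arm when they become antibody-secreting plasma cells.

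A shared sequence in their promoters was looked for first. The genes were chosen by name as known genes of the unfolded protein response, and the elements searched are known ones of that same response. Matches at these genes are therefore not independent of the choice. The ER stress response element (ERSE) is a CCAAT box, bound by NF-Y, followed at a fixed spacing by CCACG, which ATF6 and XBP1 can bind. It was searched as CCAAT, any 9 bases and CCACG on both strands of RefSeq promoters (GRCh38.p14, 250 bases before to 50 after each start). It was present in 27 of 35116 promoters (0.0769%), and in 8 of the 16 promoters of the 10 genes. By gene, it was at 25 of 27305 genes (0.0916%), and at 6 of the 10: HSPA5, HSP90B1, CALR, CANX, PDIA6 and XBP1. ERSE-II, searched as ATTGG, any 1 base and CCACG, was present in 19 promoters (0.0541%), 2 of them among the 16. By gene, it was at 19 genes (0.0696%), with HERPUD1 and SDF2L1 among them. Neither was found at PDIA4 or DNAJB9. The element TGACGTGG, known as UPRE, was in 0.729% of promoters and in none of the 16 promoters of the 10 genes. A CCAAT box, which is also part of both ERSE forms, was present in 14 of the 16 promoters and in 34.6% of all promoters. By gene, it was at 10 of the 10 and at 39.7% of all genes. A match is a description of the letters and not evidence of binding. The matches are shown 5′ to 3′ along each gene's own strand, with the ERSE or ERSE-II in capitals. Where CGTGG comes first, the element lies in the opposite orientation.
HSPA5: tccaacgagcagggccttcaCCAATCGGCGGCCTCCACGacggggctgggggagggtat
HSP90B1, upstream copy: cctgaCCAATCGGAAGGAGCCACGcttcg
HSP90B1, downstream copy: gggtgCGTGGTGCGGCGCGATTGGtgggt
CALR: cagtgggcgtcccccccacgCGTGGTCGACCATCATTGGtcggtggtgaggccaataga
CANX: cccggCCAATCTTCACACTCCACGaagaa
PDIA6: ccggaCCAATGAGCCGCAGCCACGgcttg
XBP1: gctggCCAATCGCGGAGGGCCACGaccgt
HERPUD1: cgccgATTGGGCCACGttggg
SDF2L1: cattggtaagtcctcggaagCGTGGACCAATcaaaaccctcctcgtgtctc
The HSPA5 window is chr9:125241371-125241429 (minus strand), and its element starts 66 bases before the start site. At HSP90B1 the copies are in chr12:103930211-103930239 and chr12:103930316-103930344 (plus strand), with elements that start 194 and 89 bases before the start site. The CALR window is chr19:12938364-12938422 (plus strand) and the CANX window is chr5:179698773-179698801 (plus strand). The PDIA6 window is chr2:10812848-10812876 (minus strand) and the XBP1 window is chr22:28800598-28800626 (minus strand). The HERPUD1 window is chr16:56932020-56932040 (plus strand) and the SDF2L1 window is chr22:21642094-21642144 (plus strand). The element of XBP1 starts 52 bases and that of CALR 225 bases before its start site. CANX and PDIA6 have more than 1 start site, and the CANX element starts 151, 9 or 189 bases before 3 of them. These positions belong to GRCh38 and were not used with the files, whose build was hg19.

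Library depth recovered from the all-read values was 7.99 to 17.7 M reads, lowest in induced wild type B and next lowest in vehicle A (8.89 M). HMGN1 itself stood at 163 ± 24.4 CPM with vehicle (SD, n = 3), 262 ± 51.0 in the induced wild type (n = 3) and 211 ± 16.7 in the induced mutant (n = 2). Its conversion rate was 1.47% ± 0.37, 4.82% ± 2.04 and 3.32% ± 1.87, and did not overlap between vehicle and either induced group (exact two-sided permutation p = 0.1 for each, the smallest that these group sizes allow). Of 12 precursor B-cell markers, 12 had a mean of at least 10 CPM. Of 8 plasma cell markers, PRDM1, TNFRSF17 and SLAMF7 were below 1 CPM. The others were MZB1 at 59.2 CPM, IRF4 at 15.9, CD38 at 11.4, SDC1 at 9.26 and IGJ at 3.91 CPM. Of 11 T, myeloid and stromal markers, 10 were below 1 CPM and CD3D and CD2 were listed at 0.

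The conversion rate is the share of convertible bases read as converted in a gene's reads, so it can be set side by side between genes, unlike CPM or the deposited FPKM. Over genes with a mean of at least 10 CPM (6289 genes) the median rate was 5.92%, with quartiles of 3.73% and 7.70%. The 10 genes ran beyond both quartiles, from 9.07% for SDF2L1 to 2.12% for CANX, and 7 of them lay above the median. DNAJB9, counted among the 7, was itself below 10 CPM. Library medians ran from 4.69% in vehicle A to 7.04% in induced wild type C. Each of the 10 genes except HSPA5 was lowest in vehicle A as well. Each except HSPA5 and SDF2L1 was highest in induced wild type C.

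**Figure D1:**
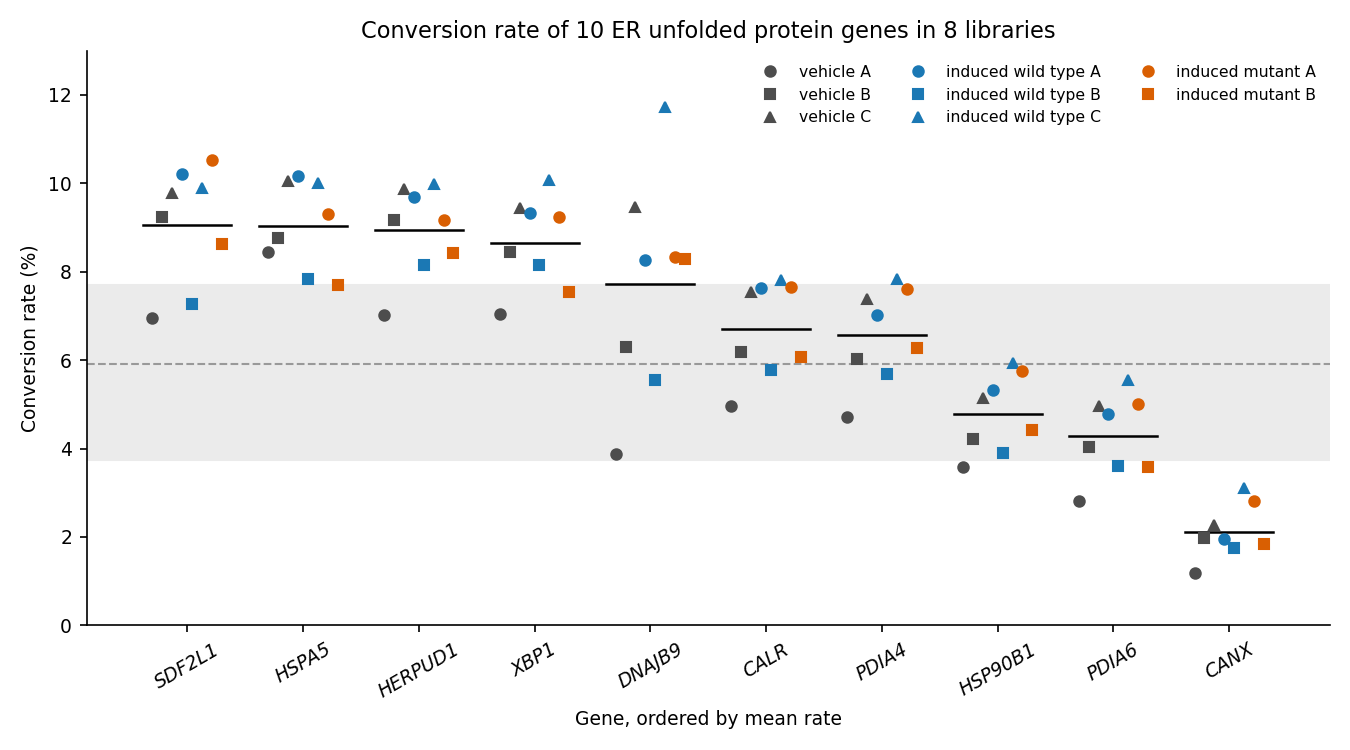
Conversion rate (%) of each gene in each of the 8 libraries, with genes ordered by their mean (black bar), colours for groups and symbols for replicate letters. The dashed line and grey band are the median (5.92%) and quartiles of 6289 genes. SDF2L1, HSPA5, HERPUD1 and XBP1 have means above the band, and CANX lies below it in every library.

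The highest rates belonged to the chaperone HSPA5 (BiP, the ER member of the HSP70 family that holds the stress sensors inactive), its cofactor SDF2L1, the degradation factor HERPUD1 and the transcription factor XBP1. HSPA5 had rates of 8.44%, 8.77% and 10.0% in vehicle A, B and C, 10.2%, 7.85% and 10.0% in the wild-type libraries A, B and C after induction, and 9.31% and 7.71% in induced mutant A and B. The groups overlapped, with the lowest value in a mutant library and the highest in a wild-type one. SDF2L1 had rates of 6.96%, 9.24% and 9.78% with vehicle, 10.2%, 7.28% and 9.90% in the induced wild type, and 10.5% and 8.62% in the induced mutant, where vehicle A and induced wild type B were lowest. HERPUD1, which recruits the ubiquitin ligase machinery of ER-associated degradation, had 7.02%, 9.17% and 9.88%, then 9.70%, 8.14% and 9.98%, then 9.18% and 8.42% in the same order of libraries. XBP1 had 7.05%, 8.44% and 9.43%, then 9.32%, 8.14% and 10.1%, then 9.24% and 7.55%. For HERPUD1 and XBP1, vehicle A was lowest, induced wild type C highest, and the groups overlapped.

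These 4 genes could not be ordered among themselves. The mean rate of SDF2L1 exceeded that of HSPA5 by 0.028 percentage points ± 0.86 (SD of 8 differences within a library) and was higher in 4 of 8 libraries. HSPA5 exceeded HERPUD1 in 5 of 8 and HERPUD1 exceeded XBP1 in 5 of 8. Each of the 4 lay above its library's median in 8 of 8 libraries, at 1.48 to 1.55 times that median on average. Their means were higher than those of 86.5% (XBP1) to 90.2% (SDF2L1) of the 6289 genes. Set against the 1524 genes with a mean of at least 50 CPM, the share of genes below them was 94.8% (XBP1) to 95.9% (SDF2L1). SDF2L1 (28.9 CPM) and HERPUD1 (18.6 CPM) are not in that set themselves.

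DNAJB9 (ERdj4), a J-domain cofactor of HSPA5 that also restrains IRE1, came next at 7.72% ± 2.44 (SD of 8 libraries). It ran from 3.87% in vehicle A to 11.7% in induced wild type C, on 9 to 31 reads a library. Its SD was the widest of the 10, and its coefficient of variation (31.6%) was close to that of CANX (29.1%), which had 1175 to 3596 reads. The lectin chaperone CALR (calreticulin) stood at 6.71% ± 1.08 and the disulfide isomerase PDIA4 (ERp72) at 6.57% ± 1.08. CALR was above PDIA4 in 6 of 8 libraries, and the difference (0.14 ± 0.24 percentage points) was smaller than its spread.

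The other 3 genes had the same order in every library and lay below the median of the 6289 genes. HSP90B1 (GRP94, the ER member of the HSP90 family) had 4.78% ± 0.88, the disulfide isomerase PDIA6 (P5) had 4.29% ± 0.93 and the membrane-bound lectin chaperone CANX (calnexin) had 2.12% ± 0.62. They took ranks 8, 9 and 10 of the 10 genes in all 8 libraries. PDIA4 exceeded HSP90B1 by 1.79 ± 0.30 percentage points, HSP90B1 exceeded PDIA6 by 0.49 ± 0.27, and PDIA6 exceeded CANX by 2.17 ± 0.44, each in 8 of 8 libraries. CANX had 1.19%, 1.99% and 2.28% with vehicle, 1.96%, 1.74% and 3.12% in the induced wild type, and 2.82% and 1.84% in the induced mutant. The share of the 6289 genes below their means was 36.4% for HSP90B1, 30.8% for PDIA6 and 10.8% for CANX. Among the 1524 genes of at least 50 CPM it was 65.9%, 59.7% and 25.3%, so HSP90B1 and PDIA6 lay above the median of that set. Within pairs of related function the rates therefore differed: CALR and CANX are both lectins for newly made glycoproteins, yet CALR had the higher rate in 8 of 8 libraries, as HSPA5 did against HSP90B1.

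No difference in conversion rate between groups passed the test for the 9 genes that could be tested (DNAJB9 was below 10 CPM). The test was limma on the log2 rate with each library's median centred, and a call is an adjusted p below 0.05 over all 6289 genes. No member was called in induced wild type against vehicle, in induced mutant against vehicle or in induced mutant against induced wild type, and the background share of genes called was 0% in each. HMGN1, the induced gene, was among the genes tested and so was not called either. The lack of a call does not by itself show an unchanged rate. Log2 differences of the 9 genes ran from -0.12 to 0.16, from -0.17 to 0.29 and from -0.05 to 0.16 in that order of comparisons. Their 95% intervals reached from -0.40 to 0.75, so a log2 difference of 1 in either direction lay outside each of them. No member had groups that did not overlap, against 3.58%, 6.76% and 7.95% of all genes. At an unadjusted p below 0.05 there were 270, 523 and 294 genes, and none of the 9 was among them.

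In all reads, the level of each gene is given in CPM, reads scaled to library depth, and is compared only within a gene. In bulk RNA, a change in the number of cells and a change in RNA per cell cannot be told apart. All 10 genes passed the filter of a mean of at least 1 CPM, and 12454 genes were tested with limma on log2(CPM + 1). No member was called in induced wild type against vehicle (background 0%), induced mutant against vehicle (0.0321%) or induced mutant against induced wild type (0.0321%). HMGN1 was not called in the first of these comparisons either. At an unadjusted p below 0.05 there were 117, 466 and 342 genes, with SDF2L1 among the last and no other member. On the recovered reads, edgeR and DESeq2 also called no member. In induced mutant against vehicle, where DESeq2 called 75 genes, HSPA5 had an unadjusted DESeq2 p of 0.00294 (DESeq2 adjusted p = 0.232).

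**Figure D2:**
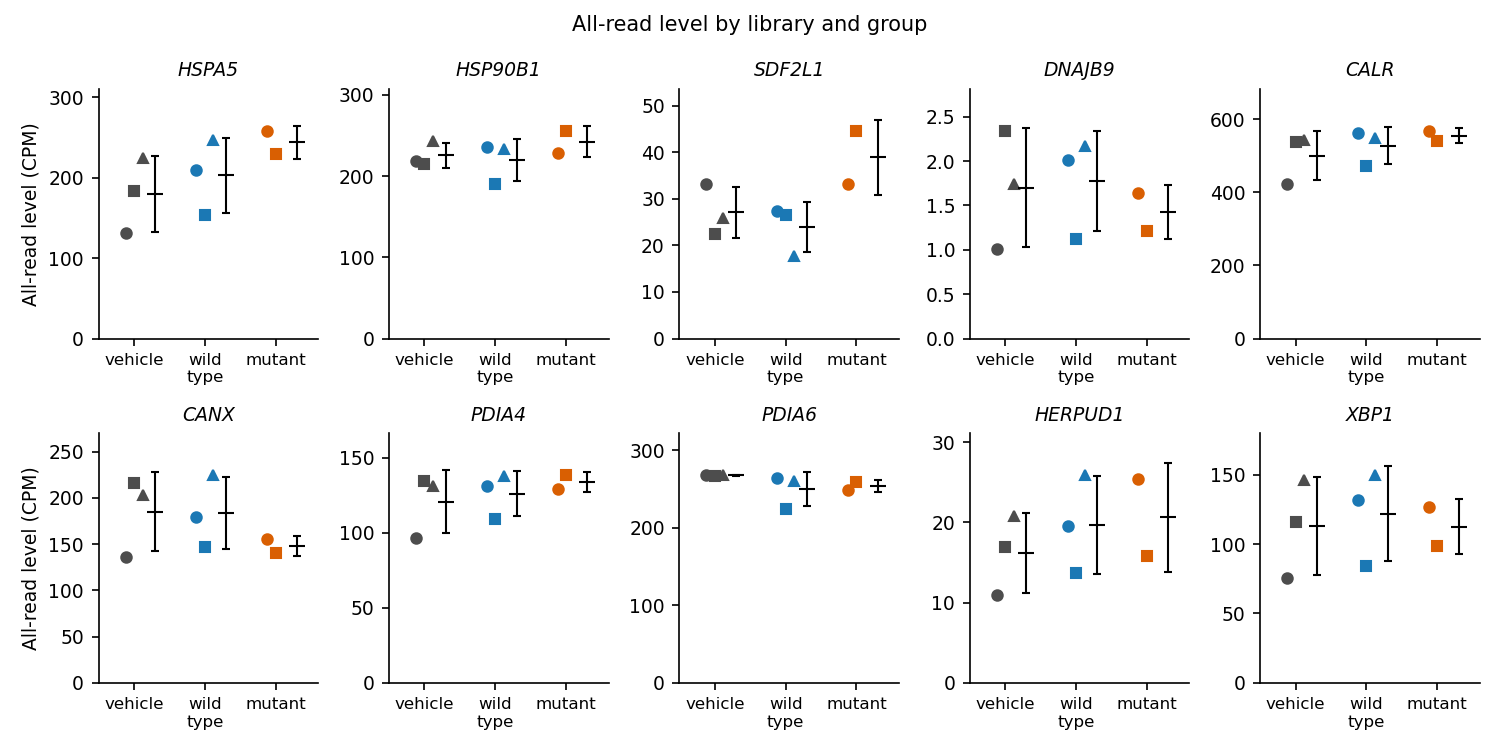
All-read level (CPM, axes from 0) of each gene in each library by group, with symbols for replicate letters (circle A, square B, triangle C) and the group mean ± SD in black to the right. Both HSPA5 mutant libraries lie above the 3 vehicle libraries, and both SDF2L1 mutant libraries lie above the 3 induced wild type libraries.

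Among the chaperones and their cofactors, HSPA5 had 131, 183 and 225 CPM in vehicle A, B and C, 209, 154 and 247 CPM in the induced wild type, and 259 and 229 CPM in induced mutant A and B. Both mutant libraries lay above all 3 vehicle libraries, while the wild-type libraries overlapped both groups. The log2 difference of mutant against vehicle was 0.47 (SE 0.25, 95% interval -0.08 to 1.03, limma adjusted p = 0.99995). Non-overlap with the mutant higher was seen in 4.61% of all genes, and with the mutant either higher or lower in 16.0%. Without vehicle A the log2 difference was 0.26.

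SDF2L1 had 33.2, 22.5 and 25.8 CPM with vehicle, 27.5, 26.5 and 17.7 CPM in the induced wild type, and 33.2 and 44.6 CPM in the induced mutant. Both mutant libraries lay above the 3 induced wild type libraries, and vehicle A equalled mutant A to 3 digits. The log2 difference of mutant against induced wild type was 0.69 (SE 0.25, 95% interval 0.14 to 1.24, limma unadjusted p = 0.0192, adjusted p = 0.999637). Non-overlap with the mutant higher was seen in 1.79% of all genes, and in either direction in 15.0%. Against vehicle its log2 difference was 0.51 (95% interval -0.05 to 1.06), and 0.30 without induced mutant B.

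HSP90B1, which folds a narrower set of clients such as integrins and Toll-like receptors, had 190 to 256 CPM over the 8 libraries, with overlapping groups. DNAJB9 was near the filter, with 1.01, 2.34 and 1.75 CPM with vehicle, 2.02, 1.13 and 2.17 CPM in the induced wild type and 1.64 and 1.21 CPM in the induced mutant. These values come from 9 to 31 reads, and the groups overlapped.

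Of the lectin chaperones, CALR had 422 to 568 CPM and CANX 136 to 225 CPM. The 2 CANX mutant libraries, at 156 and 141 CPM, lay above vehicle A (136 CPM) and below vehicle B and C (216 and 203 CPM). Of the disulfide isomerases, PDIA4 had 96.4 to 139 CPM, lowest in vehicle A. PDIA6 varied least of the 10 genes, with a coefficient of variation of 5.73% over the 8 libraries.

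PDIA6 had 268, 266 and 268 CPM with vehicle, 264, 225 and 261 CPM in the induced wild type, and 249 and 259 CPM in the induced mutant. Its vehicle libraries lay above all libraries of both induced groups, by a small margin. The log2 differences were -0.10 (SE 0.12) for the induced wild type and -0.07 (SE 0.14) for the induced mutant, each smaller than its SE, and the limma adjusted p were 0.992337 and 0.99995. Non-overlap with the induced group lower was seen in 1.53% of all genes for the wild type (4.04% in either direction) and in 11.4% for the mutant. The 2 comparisons share their vehicle libraries. For the wild type the log2 difference was -0.03 without induced wild type B, -0.24 with median-centred libraries, -0.23 with edgeR and -0.25 with DESeq2. For the mutant it was -0.04 without mutant A and -0.04 with edgeR.

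Of the regulators, XBP1 had 75.9, 116 and 146 CPM with vehicle, 132, 83.9 and 150 CPM in the induced wild type, and 127 and 98.5 CPM in the induced mutant. HERPUD1 had 10.9, 16.9 and 20.8 CPM, then 19.5, 13.6 and 25.9 CPM, then 25.5 and 15.9 CPM in the same order. In both genes vehicle A was the lowest library, and the spread within a group was wider than the gap between group means.

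Over the 10 genes the median log2 difference in all reads was 0.06, 0.13 and 0.07 in the 3 comparisons, beside 0.09, -0.04 and -0.12 over all genes tested. The 95% intervals of the induced wild type against vehicle lay within -0.68 and 0.93 for all 10 genes, so a log2 difference of 1 lay outside each of them. For the mutant against vehicle, the intervals of HSPA5, SDF2L1 and HERPUD1 extended beyond 1 on the log2 scale. All these intervals are on log2(CPM + 1). For DNAJB9, with a mean of 1.66 CPM, the added 1 shrinks differences. Its intervals (-0.76 to 0.49 for the mutant against vehicle) therefore do not exclude a log2 difference of 1 in CPM itself.

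**Figure D3:**
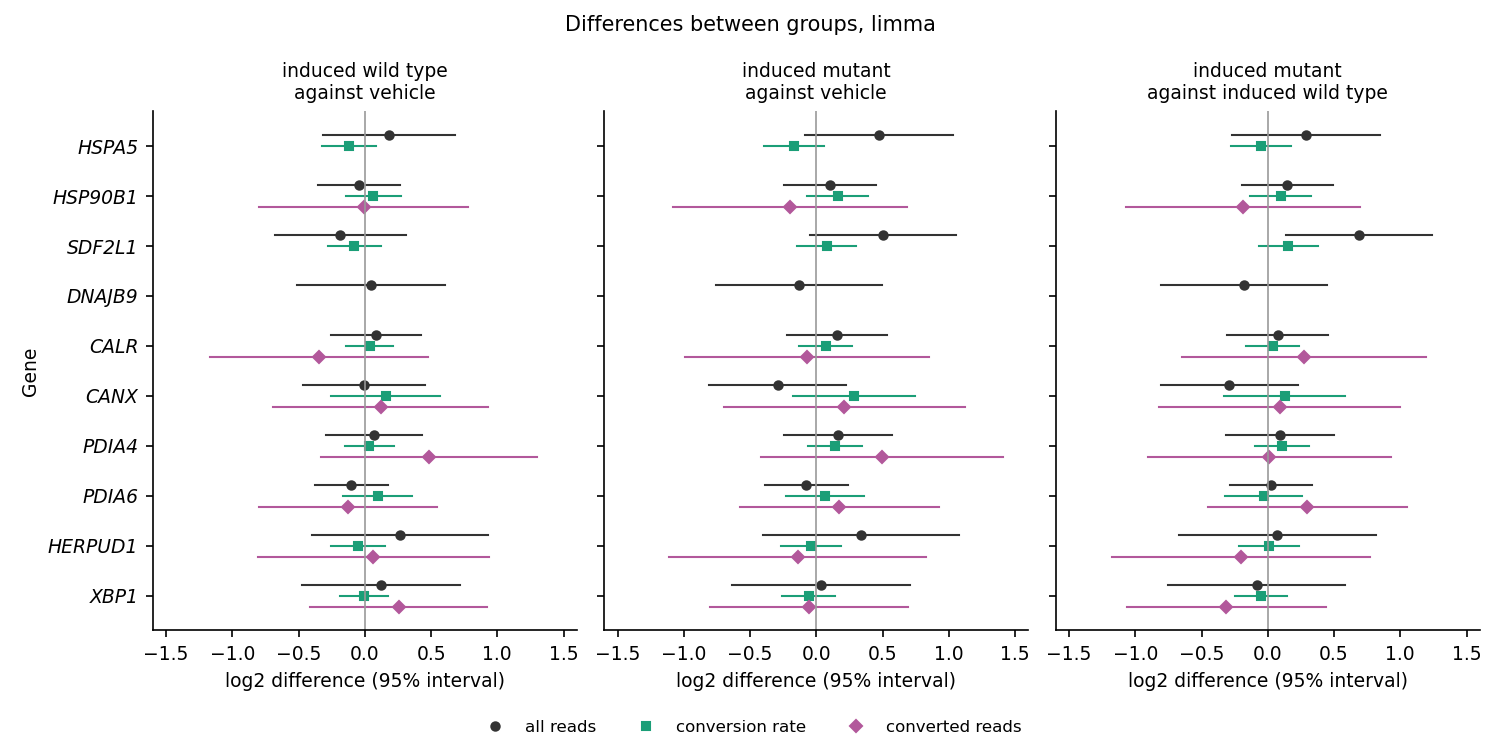
Log2 differences with 95% intervals (limma) of each gene in the 3 comparisons, for all reads (circles), conversion rate (squares) and converted reads (diamonds). The interval of SDF2L1 in all reads, mutant against induced wild type (0.14 to 1.24), is the only one that excludes 0.

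The all-read levels of most of the genes moved together from library to library, across the groups. The mean log2 level of the 10 genes, each centred on its own mean, was -0.30 in vehicle A and -0.26 in induced wild type B, and 0.03 to 0.15 in the other 6 libraries. Vehicle A and induced wild type B were the lowest and next lowest libraries, in either order, for HSPA5, CALR, PDIA4, XBP1, HERPUD1 and DNAJB9. The same held for 26.3% of all genes tested, and these were also the libraries of lowest depth. The part of depth in this pattern was not tested. As a description over 8 libraries, which differ in depth for all genes at once, the Pearson correlation of each gene with the mean of the other 9 was 0.85 to 0.94 for CALR, HSPA5, XBP1, PDIA4 and HERPUD1. It was 0.69 for DNAJB9, 0.64 for HSP90B1, 0.54 for CANX, 0.34 for PDIA6 and -0.44 for SDF2L1. The correlations of SDF2L1 with single genes ran from -0.84 with CANX to 0.30 with HSP90B1. Among 6280 other genes with a mean of at least 10 CPM, those most like the mean profile were MAK16 (0.986), RRM2 (0.983), AIMP1 (0.979), SLC35A2 (0.979) and PPME1 (0.979).

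Converted reads were deposited as FPKM per transcript. Of the 10 genes, 7 had a mean of at least 1 FPKM and were tested among 5737 genes with limma on log2(FPKM + 1). DNAJB9 had no row, and HSPA5 and SDF2L1 were below the filter. No member was called in induced wild type against vehicle (background 0%), induced mutant against vehicle (0.401%) or induced mutant against induced wild type (0%). None of the 7 genes tested had groups that did not overlap, against 12.0%, 28.2% and 17.0% of all genes tested. Log2 differences ran from -0.35 to 0.49, from -0.20 to 0.50 and from -0.31 to 0.30, with 95% intervals that reached -1.18 and 1.41. At an unadjusted p below 0.05 there were 455, 678 and 169 genes, none of them a member. Over the 7 genes the median log2 difference was 0.06, -0.06 and 0.01, beside 0.23, 0.17 and -0.04 over all genes tested.

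PDIA4 had 2.09, 8.20 and 6.82 FPKM with vehicle, 6.85, 6.35 and 9.57 FPKM in the induced wild type, and 9.22 and 6.16 FPKM in the induced mutant. Vehicle A stood apart from the other 7 libraries, and the groups overlapped through vehicle B and C. The log2 differences against vehicle, 0.49 for the induced wild type and 0.50 for the induced mutant, rested on vehicle A: without it they were -0.00029 and 0.01. CALR had 2.25, 6.88 and 6.15 FPKM with vehicle, 4.21, 2.41 and 4.02 FPKM in the induced wild type, and 5.25 and 3.67 FPKM in the induced mutant, again with vehicle A lowest and overlapping groups. For the induced wild type its log2 difference was -0.35, which became -0.75 when vehicle A was left out (limma adjusted p = 0.997913). The ranges of the others were 4.85 to 8.82 FPKM for PDIA6, 2.41 to 7.54 for CANX, 1.71 to 4.02 for HSP90B1 and 0.88 to 2.94 for HERPUD1.

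HSPA5 was nearly empty in the converted table, although its all-read level was 204 CPM on average and its conversion rate among the highest. Its values were 0, 0.97 and 0.24 FPKM with vehicle, 0.65, 0.55 and 0.45 FPKM in the induced wild type, and 0.27 and 0.26 FPKM in the induced mutant. Both mutant values of HSPA5 lay below the 3 of the induced wild type. SDF2L1, with a conversion rate as high, had 0.51, 0.33 and 0.52 FPKM with vehicle. It had 0.89, 0.50 and 0.41 FPKM in the induced wild type, and 1.19 and 0.95 FPKM in the induced mutant. Both mutant values of SDF2L1 lay above all libraries of the other groups. HSPA5 and SDF2L1 were below the filter of 1 FPKM, and no background share of non-overlap was computed there. CANX, with the lowest conversion rate of the 10, had 4.04 ± 1.61 FPKM (SD of 8 libraries). The order of the genes in the 2 tables thus differed. Exon structures were joined by accession from GENCODE 29. HSPA5 has 2570 intronic bases, SDF2L1 1173 and CANX 27813. The FPKM of the genes did not follow these lengths throughout. XBP1 has 4219 intronic bases and a mean of 12.0 FPKM, CALR 3980 and 4.36, and HSP90B1 14735 and 3.14. Across 9820 transcripts, the Spearman correlation of the mean converted FPKM was 0.27 with intron length and -0.03 with exon length. With all-read CPM it was 0.39. Of 105 transcripts with a single exon, 98 held 0 in each library. The part of intron length was not tested. Neither the labels nor the headers say which reads the converted table counted.

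XBP1 was the one gene of the 10 with rows for transcripts that differ by a regulated intron. The transcript with 6 exons has 26 more intronic bases than the one with 5, the segment that IRE1 removes. In all reads the 2 rows held identical values. In converted reads the 5-exon row had 4.24, 5.70 and 7.69 FPKM with vehicle, 5.14, 6.29 and 5.38 FPKM in the induced wild type, and 8.60 and 3.22 FPKM in the induced mutant. The 6-exon row had 6.22, 13.4 and 15.2 FPKM, then 12.0, 13.2 and 14.5 FPKM, then 12.8 and 8.44 FPKM. The 6-exon row was higher in 8 of 8 libraries, by a ratio of 1.47 to 2.69, and the ratios of the 3 groups overlapped. The ends of the XBP1 transcripts are not the same. In 195 sets of transcripts of a gene with the same ends and at least 20 exonic bases apart, the one with fewer exonic bases was higher in 168, lower in 3 and equal in 24. Of the 2 XBP1 transcripts, the one with 6 exons is also the one with fewer exonic bases (1794 against 1850). Whether the ratio of the XBP1 rows reflects splicing was not tested.

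**Figure D4:**
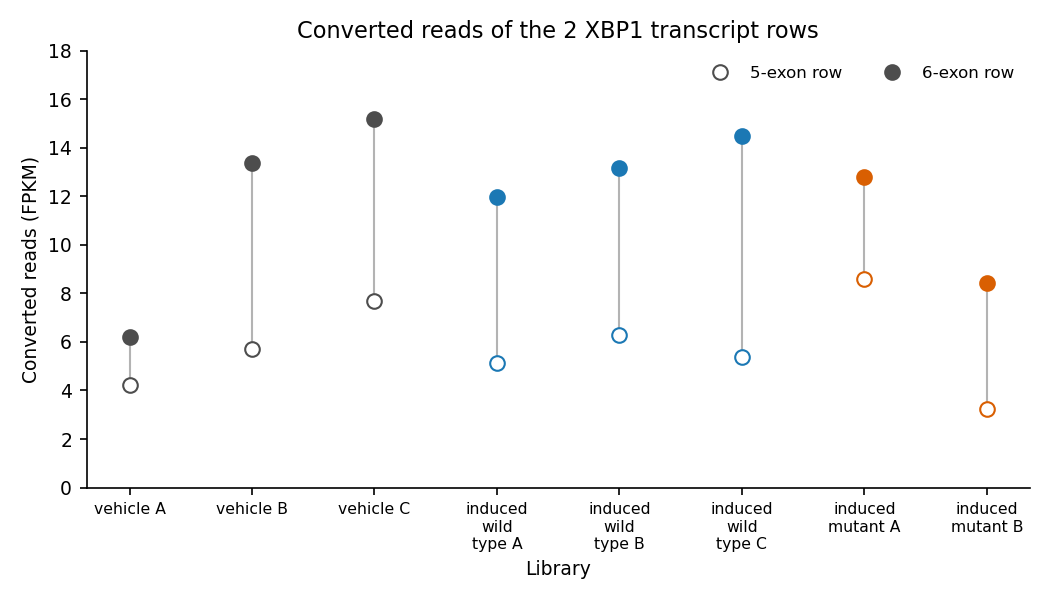
Converted reads (FPKM) of the 5-exon row (open circles) and 6-exon row (filled circles) of XBP1 in each library, coloured by group, with a line joining the rows of a library. The filled circle lies above the open one in all 8 libraries. The 6-exon transcript has fewer exonic bases than the 5-exon one.

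The other genes of the pathway were taken as 8 lists, and none of their genes was called in any measure or comparison. Their conversion rates are given as a description. Of 7 targets of the PERK-ATF4 branch with a mean of at least 10 CPM, 6 lay in the top 10% of all genes, with a list median of 9.66%, highest for SESN2 (11.1%), an inhibitor of mTORC1 signalling, and lowest for the asparagine synthetase ASNS (1.79%). The mean rates of HSPA5, SDF2L1, HERPUD1 and XBP1 were below those of these 6 genes, of which ATF4 was lowest (9.18% ± 1.07, SD of 8 libraries). Its gap to SDF2L1 (9.07% ± 1.34) and HSPA5 (9.04% ± 1.00) was smaller than these spreads. The 3 sensors and proteases of sufficient level had a median of 6.51%, from ATF6B (3.20%) to the site-1 protease MBTPS1 (6.76%). For 8 further chaperones and HSPA5 cofactors the median was 6.10%, from DNAJC10 (2.47%) to MANF (8.54%), a secreted ER stress protein.

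The remaining lists had medians below that of all genes. ER-associated degradation genes (20 of 21 found, 14 at 10 CPM or more) had a median of 5.77%, from UBE2G2 (3.62%) to the ubiquitin ligase SYVN1 (8.75%). ER exit and KDEL retrieval genes (7) had 5.78%, from SAR1A (3.48%) to SEC24C (7.65%). The 8 other thiol oxidoreductases had 4.54%, from PDIA3 (3.03%) to TXNDC11 (9.46%), which puts PDIA6 close to, and PDIA4 above, the middle of that family. Glycoprotein quality control genes (7) had 3.91%, from the glucosidase subunit GANAB (1.76%) to the glucosidase MOGS (8.87%). The 16 translocation and signal cleavage genes had the lowest median, 3.07%, from SEC61B (1.16%) to SEC62 (7.53%), and CANX lay below it.

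**Figure D5:**
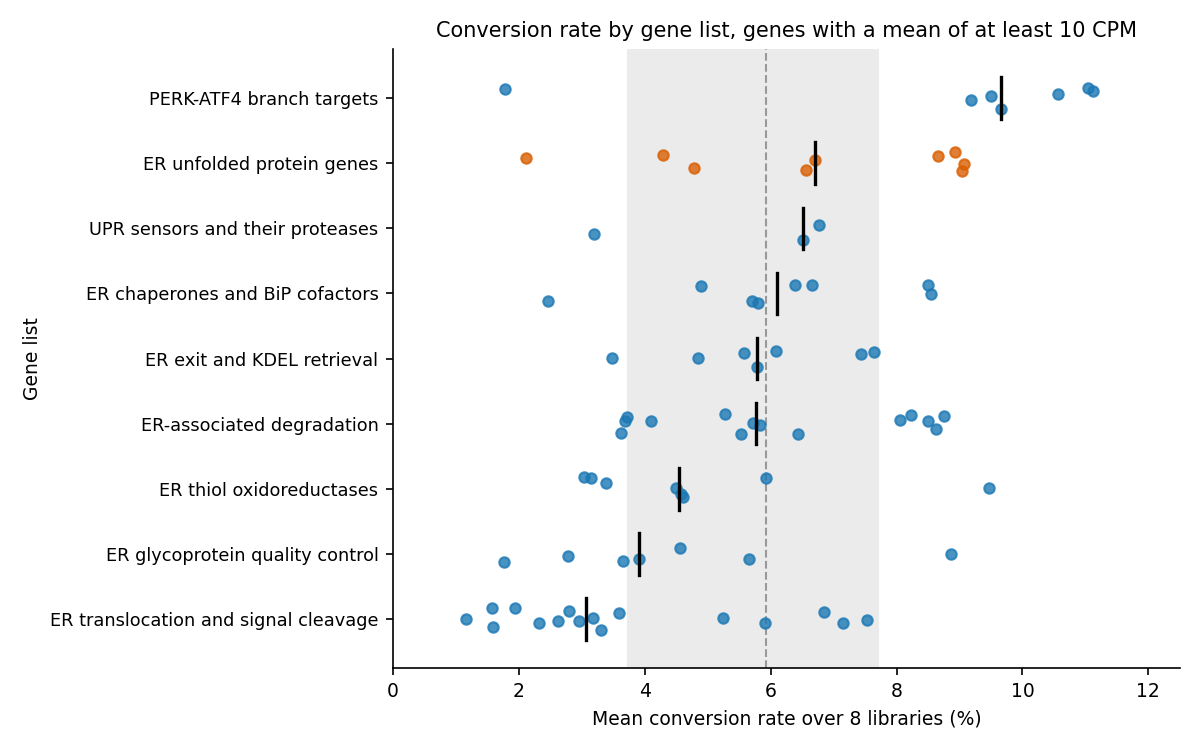
Mean conversion rate (%) over 8 libraries of each gene with a mean of at least 10 CPM, by list, with the list median as a black bar and the all-gene median and quartiles as in the plot by member. The 10 ER unfolded protein genes (orange, 9 at this level) span 2.12% to 9.07%, and the PERK-ATF4 targets have the highest median (9.66%).

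The smallest p of each list did not reach the threshold. In all reads these were ERN1 (IRE1, log2 difference 0.35) and SPCS1 (-0.38) in induced wild type against vehicle. They were MANF (0.41), P4HB (-0.27) and PRKCSH (-0.42) in induced mutant against vehicle, and OS9 (-0.29), KDELR1 (-0.23) and PPP1R15A (-0.39) in induced mutant against induced wild type. Limma adjusted p ran from 0.992337 to 0.99995. In conversion rate they were MBTPS1 (-0.19), PDIA5 (0.36), SSR3 (-0.35) and DDIT3 (-0.24) in induced wild type against vehicle. They were SEC63 (0.30), LMAN2 (0.24) and KDELR2 (0.22) in induced mutant against vehicle, and DERL3 (-0.57) in induced mutant against induced wild type, whose unadjusted p was the smallest (0.00117, limma adjusted p = 0.924969). In converted reads they were EIF2AK3 (PERK, 0.51), LMAN2 (0.50) and SAR1A (0.67) in induced wild type against vehicle and DNAJB11 (-0.87) in induced mutant against induced wild type. In induced mutant against vehicle they were PDIA3 (1.55), NPLOC4 (1.57), SSR4 (-0.81) and SESN2 (1.09). The smallest limma adjusted p among them was that of PDIA3 (0.163658), and that of NPLOC4 was 0.228297. NPLOC4 passed without vehicle C (log2 difference 2.12, limma adjusted p = 0.034412).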

How the data were processed

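RNA of 8 NALM6 libraries was measured by SLAM-seq with a stranded mRNA kit, per the labels. The genome build was hg19 (GRCh37), per the submitters' processing notes. No aligner, conversion caller, counted region or strand setting is named in those notes or in the headers. The deposited all-read signal, named CPM per the file headers, held whole multiples of a step, and 100% of values were whole reads within 0.1 read. The conversion rate was deposited as a fraction and is given here as a percent. Of 29863 rows of 1 read, 12527 (41.9%) had a rate strictly between 0 and 1, so it is over bases and not over reads. The converted reads were deposited as FPKM by the authors.

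Of 25396 unnamed rows, 24846 were named through RefSeq (GRCh38.p14, names only). Reads shared with overlapping or antisense genes, or with near-identical copies such as HSP90B1 pseudogenes, cannot be told apart. Limma 3.58.1 (R 4.3.3, mean-variance trend) was fitted to all 8 libraries in a single model with no covariate, on log2(CPM + 1) with a mean of at least 1, log2(rate in percent + 0.1), median-centred, with a mean of at least 10 CPM, and log2(FPKM + 1) with a mean of at least 1. Low genes' differences are understated on this scale. Adjusted p are Benjamini-Hochberg values over all genes tested, passing below 0.05. The script was tested on simulated data. Alternatives included edgeR 4.0.16 and DESeq2 1.42.0 on recovered reads. A count model is not the main test because the deposited unit is not counts. The members and lists were chosen with earlier results of these data known. Named genes were the members, HMGN1, in each pathway list the genes that passed, the gene of smallest p in each measure and those of highest and lowest conversion rate, and the 5 genes most like the members' mean profile. Promoters are RefSeq sequences, shown with 20 bases on each side of a match, or 5 where the window would overlap an exon of the gene in GENCODE 29. Tables were made with Python 3.11.15 and pandas 2.3.3.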

Additional observations from a re-analysis of the deposited data

How the results depend on the processing

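No member was called in any of the 9 tests, under the planned settings or under any of the 138 alternative fits: other pseudocounts, filters and scalings, edgeR and DESeq2 on recovered reads, only the 2 groups compared, the replicate block, each library left out, and limma without the mean-variance trend, which was added after seeing the data. The smallest adjusted p of a member was 0.232, for HSPA5 in induced mutant against vehicle (DESeq2, log2 difference 0.50, all reads). Over its 17 alternatives this difference ran from 0.26 (without vehicle A) to 0.65 (without vehicle C), with adjusted p from 0.232 to 1. That of SDF2L1 ran from 0.30 to 0.71 against vehicle and from 0.48 to 0.90 against induced wild type. Of 1185 alternative values of members, 99 changed sign, among them that of PDIA4 in converted reads of induced wild type against vehicle (-0.00029 without vehicle A, up to 0.79 without vehicle B). The differences given above for HSPA5, SDF2L1 and PDIA6 did not. The order by conversion rate kept 43 to 45 of 45 pairs. With genes of at least 50 CPM as the reference set, 9 members lay above its median in place of 7. SDF2L1, HERPUD1 and DNAJB9 are below 50 CPM and so are not in that set themselves. Correlations of same-letter libraries, as deviations from group means, ran from -0.81 to 0.78, with 3 of 7 over 0.1. The deviations of the 2 mutant libraries mirror each other by construction. The check therefore could not settle whether the letters pair the libraries. The replicate block, which gave HSPA5 a log2 difference of 0.64 (limma adjusted p = 0.704), called 0 members. It called NPLOC4 in converted reads of mutant against vehicle (log2 difference 1.97, limma adjusted p = 0.0278), which the main test did not. Over all genes, the number called ranged from 0 to 75 in all reads of mutant against vehicle (4 in the main test), 0 to 13 against induced wild type (4) and 0 to 149 in converted reads of mutant against vehicle (23), with 0 to 5 in the other tests (0 in each). DNAJB9 rests on 9 to 31 reads a library.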

Other observations

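The 2 ERSE forms were found in promoters of 44 genes, 0.161% of the genes with a RefSeq promoter, and 36 of them are not among the 10 genes described above. These genes were chosen after the promoter search, and their values are a description. Of the 36, 11 had a mean of at least 10 CPM, with a median conversion rate of 4.74%. The ER genes HYOU1 (5.71%), CRELD2 (6.39%) and SERP1 (3.45%) were among them, as were EIF2A (4.74%), NUCB1 (3.46%), RUVBL2 (3.84%) and SHCBP1 (8.25%). None of the 11 reached the rates of HSPA5, SDF2L1, HERPUD1 or XBP1. FICD, which adds AMP to HSPA5, had an ERSE and stood at 0.835 CPM.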
